A study of Mus musculus with 3 samples.

Results

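The genes of the p53 pathway and the inhibitors of cyclin-dependent kinases (CDKs) were followed in mouse keratinocytes of 3 genotypes. They are 32 named genes: p53 itself (Trp53) and its negative regulators, 4 CDK inhibitor genes with the retinoblastoma gene Rb1, and established targets of p53. Their symbols were matched to the Ensembl identifiers of the count tables. All 32 reached a level of 1 CPM, a count scaled to the size of its library, in at least 1 library, as did 11865 of the 41214 identifiers in all. Keratinocytes form the epidermis. The cells came from the C57BL/6 strain, were immortalised with SV40 and were growing exponentially, and all 3 groups share these features. The groups are a knockout of ARPC4 (ARPC4 ko), a subunit of the Arp2/3 complex that nucleates branched actin, cells that carry a fusion of Nrf2 with EGFP (Nrf2-EGFP), and wild type cells (wt). Nrf2, the product of Nfe2l2, is the transcription factor of the antioxidant response. The title of the knockout sample names Cre, the recombinase used to delete floxed alleles, and that of the Nrf2-EGFP sample contains the words High and Nrf2. The sources used here do not say how Cre and the fusion were delivered or whether each culture is 1 clone.

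p53 is a transcription factor that is kept low by the ubiquitin ligase Mdm2 and its relative Mdm4, and that accumulates after DNA damage or other stress. It then induces genes that halt the cell cycle, repair DNA or drive apoptosis, Mdm2 itself among them. CDK inhibitors act on the same decision from another side: they keep cyclin-dependent kinases from phosphorylating the retinoblastoma protein RB, which holds back the E2F factors of S phase. The large T antigen of SV40 binds both p53 and RB, and immortalisation with SV40 rests on that binding. The labels give the immortalisation method only, and neither the antigen nor the activity of p53 protein was measured here. In the epidermis the family member p63, encoded by Trp63, shares several targets with p53.

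With 1 library per genotype, the spread between cultures is not known, no test of a genotype can be made and no p-value is given. Each library held between 22924294 and 25723959 gene counts, and levels are CPM scaled with TMM factors. A log2 fold compares CPM + 0.5 between libraries, so it is too small for genes with few counts. Folds and ratios come from the scaled counts without that addition, and ranges in parentheses are 95% counting intervals, which cover counting error only. A gene is called higher or lower here where its log2 fold is at least 1 in size and its interval excludes a ratio of 1. Arpc4 had 61.0 CPM in the library labelled ARPC4 ko, 98.4 CPM in Nrf2-EGFP and 94.2 CPM in wt, which is 1.54-fold lower in the labelled knockout than in wt (1.44 to 1.65) and is not called. Gene counts do not show which exons the remaining reads cover, so the deletion itself was not checked. Nfe2l2 had 180 CPM in ARPC4 ko, 166 CPM in Nrf2-EGFP and 225 CPM in wt, so it was 1.35-fold below wt in the library labelled Nrf2-EGFP (1.30 to 1.41). Whether reads of the fusion are counted under this gene is not known. Groups are named below by their labels. Of 11 keratinocyte markers, all were measured, and they summed to 17030 CPM in ARPC4 ko, 22340 CPM in Nrf2-EGFP and 28050 CPM in wt. The fibroblast markers Col1a2, Col3a1, Dcn, Lum, Pdgfrb and Thy1, the immune markers Adgre1, Cd207, Cd3e and Lyz2 and the melanocyte markers Dct, Sox10, Tyr and Tyrp1 had no count in any library. The fibroblast list summed to 4.36 CPM in ARPC4 ko, 2.66 CPM in Nrf2-EGFP and 1.60 CPM in wt, the immune list to 6.38, 4.79 and 5.69 CPM and the melanocyte list to 5.35, 2.17 and 3.47 CPM in that order of libraries. The endothelial list summed to 52.9 CPM in ARPC4 ko, 61.2 CPM in Nrf2-EGFP and 26.3 CPM in wt. Of these lists, 2 of 10 fibroblast, 1 of 9 immune, 1 of 7 melanocyte and 2 of 6 endothelial genes were measured. Vim (fibroblast list) was called higher in ARPC4 ko, at log2 folds of 1.67 against wt and 2.41 against Nrf2-EGFP. Flt1 (endothelial list) was called above wt in both other libraries, at 1.05 in ARPC4 ko and 1.26 in Nrf2-EGFP. Mitf (melanocyte list) was called higher in ARPC4 ko than in Nrf2-EGFP, at 1.26. The shares of all genes called are given below. In such bulk RNA, fewer cells of a type and less RNA per cell cannot be told apart.

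The promoters of 6 of the genes are printed here because they include the known direct targets of p53 and the members whose levels differed most between libraries. Each is the stretch of 250 bases before an annotated RefSeq start on GRCm38.p6, read 5′ to 3′ on the strand of the gene. Capitals in the first 4 mark the 10-base unit of the p53 response element, which binds p53 best as a pair of units. In Fas, capitals mark TGANTCA, the motif of AP-1, and Btg2 held none of the motifs searched. The windows are chr17:29090729-29090978 on the plus strand for Cdkn1a, chr10:117710759-117711008 on the minus strand for Mdm2, chr11:40755287-40755536 on the minus strand for Ccng1, chr6:67037408-67037657 on the minus strand for Gadd45a, chr19:34290409-34290658 on the plus strand for Fas and chr1:134079156-134079405 on the minus strand for Btg2.
Cdkn1a: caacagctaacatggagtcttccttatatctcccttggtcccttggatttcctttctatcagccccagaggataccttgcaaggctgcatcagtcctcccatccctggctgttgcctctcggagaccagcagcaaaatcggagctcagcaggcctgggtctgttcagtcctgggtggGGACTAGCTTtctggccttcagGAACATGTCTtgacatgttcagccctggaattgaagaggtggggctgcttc
Mdm2: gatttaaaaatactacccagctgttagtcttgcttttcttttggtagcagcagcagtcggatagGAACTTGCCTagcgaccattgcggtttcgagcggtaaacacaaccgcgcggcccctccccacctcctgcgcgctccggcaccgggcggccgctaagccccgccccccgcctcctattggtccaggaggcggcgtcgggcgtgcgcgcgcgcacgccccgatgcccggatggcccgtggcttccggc
Ccng1: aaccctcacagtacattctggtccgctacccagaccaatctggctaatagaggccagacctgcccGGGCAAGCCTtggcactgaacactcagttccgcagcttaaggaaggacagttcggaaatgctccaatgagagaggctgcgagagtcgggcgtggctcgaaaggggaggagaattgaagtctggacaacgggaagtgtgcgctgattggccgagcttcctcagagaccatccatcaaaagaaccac
Gadd45a: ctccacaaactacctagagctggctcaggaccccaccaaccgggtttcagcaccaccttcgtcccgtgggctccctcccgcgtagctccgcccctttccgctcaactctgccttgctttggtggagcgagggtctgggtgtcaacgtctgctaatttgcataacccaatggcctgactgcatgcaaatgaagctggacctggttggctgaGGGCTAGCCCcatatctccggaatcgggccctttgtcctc
Fas: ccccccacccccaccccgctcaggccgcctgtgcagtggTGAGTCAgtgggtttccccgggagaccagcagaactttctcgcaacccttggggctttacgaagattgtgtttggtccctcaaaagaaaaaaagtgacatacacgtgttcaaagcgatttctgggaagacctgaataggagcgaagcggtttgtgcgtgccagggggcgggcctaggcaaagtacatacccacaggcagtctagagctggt
Btg2: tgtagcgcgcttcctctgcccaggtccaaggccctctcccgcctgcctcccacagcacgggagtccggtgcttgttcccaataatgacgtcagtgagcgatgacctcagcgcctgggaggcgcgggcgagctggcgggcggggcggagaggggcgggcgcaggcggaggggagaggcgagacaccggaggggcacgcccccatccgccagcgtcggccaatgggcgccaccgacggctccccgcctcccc

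RefSeq starts were found for 23 of the 32 genes, with 32 windows in all, and the other genes, Trp53inp1, Perp and Tnfrsf10b among them, are named without a promoter. On either strand, the 10-base p53 unit was found in 10 windows from 10 genes: Aen, Bax, Ccng1, Cdkn1a, Ei24, Gadd45a, Mdm2, Polk, Sesn1 and Trp53. That is 31.2% of these windows, against 7.13% of 32851 windows of the same length over all genes. Most of the genes are on the list because they are p53 targets, so this share describes the list and tests nothing. A pair of units at most 13 bases apart was found in the upstream window of Cdkn1a, at 73 and 51 bases before the start, and in 0.0639% of all windows. The window of the other Cdkn1a start, chr17:29093519-29093768, held none of the motifs searched. Only exact matches of the unit were searched, so near matches beside the capitals are not marked. The AP-1 motif TGANTCA was in 6.25% of these windows (Fas and Mdm4) and in 6.75% of all. TGACNNNGC, the core of the antioxidant response element that Nrf2 binds, was in 9.38% of these windows (Cdkn2a, Eda2r and Trp53) and in 10.2% of all. TGATGNAA, the element of ATF4 and C/EBP, was in none of these windows and in 3.45% of all. A motif is a match of letters, not a measured binding site. The windows end at the start and leave out introns, where known p53 sites of Mdm2 and Gadd45a lie.

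Most of the 32 genes differed little between the 3 libraries. In 28 of them the highest library was under 2-fold above the lowest, and in 23 it was under 1.5-fold above, which is 71.9% of the genes, against 73% of all genes compared and 82.5% of the 9318 genes with at least 10 CPM. The 4 genes with a wider range were Fas (3.62-fold), Trp53inp1 (3.26-fold), Gadd45a (2.49-fold) and Btg2 (2.38-fold). The highest library was ARPC4 ko for 16 genes, Nrf2-EGFP for 3 and wt for 13, and the lowest was ARPC4 ko for 11, Nrf2-EGFP for 11 and wt for 10. The same split was not computed over all genes, so it is not read as a trait of the 32 genes. It also rests on the scaling: total counts raised the median log2 fold of all genes in ARPC4 ko against wt from -0.01 to 0.09.

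Levels per kilobase of exonic length, averaged over the 3 libraries, covered more than 3 orders of magnitude. Perp led with 483 CPM per kilobase, followed by Cdkn2a (158), Plk2 (71.1), Trp53 (60.5) and Phlda3 (49.4). Perp encodes a desmosomal membrane protein of stratified epithelia that both p63 and p53 induce. At the other end stood Eda2r (0.305 CPM per kilobase), Bbc3 (0.908) and Fas (1.11). These 3 had under 100 counts in every library, so small differences in them were not detectable at this depth.

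**Figure D1:**
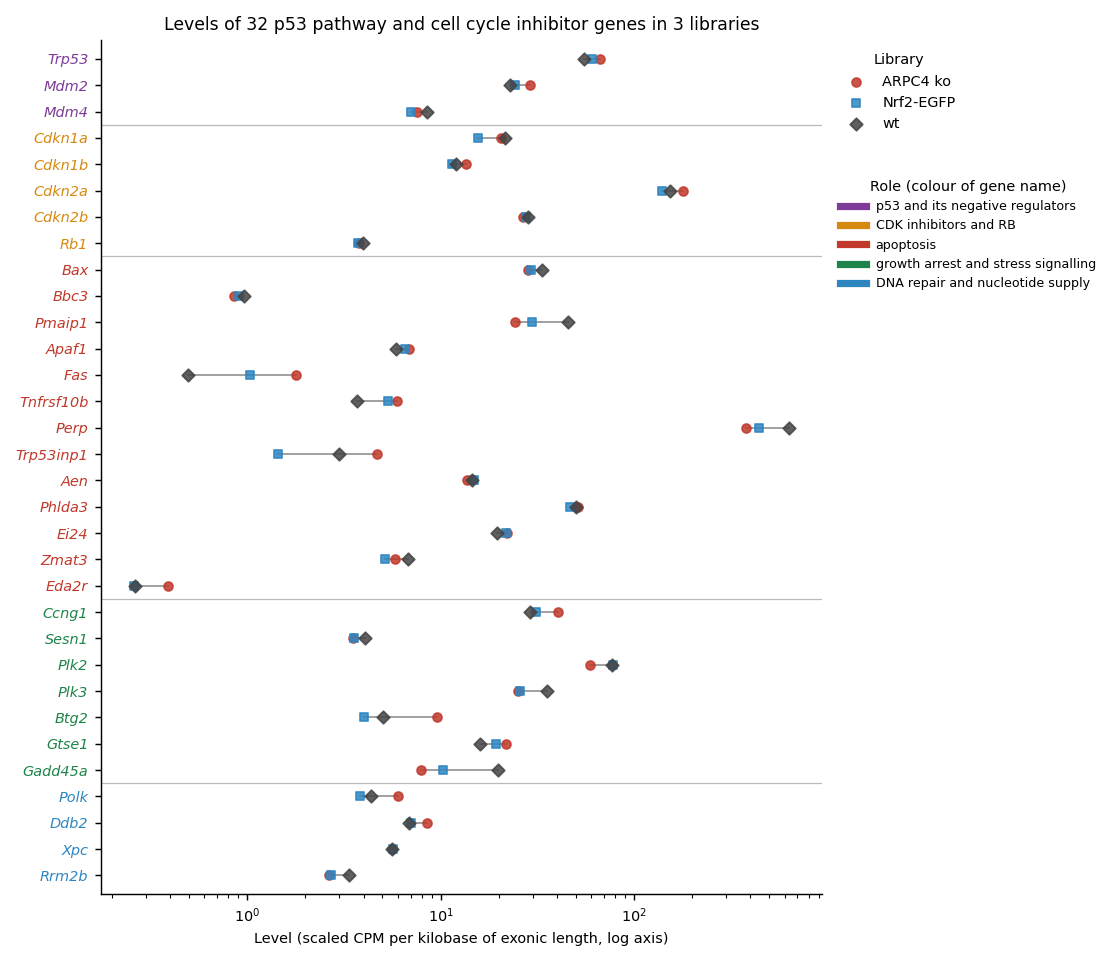
Level of each of the 32 genes in scaled CPM per kilobase of exonic length (log axis) in ARPC4 ko, Nrf2-EGFP and wt, with 1 point per library, a line from the lowest to the highest and gene names coloured by role. Most points lie close together, and Fas, Trp53inp1, Btg2 and Gadd45a show the longest lines.

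RNA of p53 and its negative regulators stayed within 1.3-fold across the 3 libraries. Trp53 had 269 CPM in ARPC4 ko, 244 CPM in Nrf2-EGFP and 222 CPM in wt. Both altered cultures were above wt, by 1.21-fold in ARPC4 ko (1.16 to 1.25) and by 1.099-fold in Nrf2-EGFP (1.06 to 1.14), and neither ratio is called. Mdm2, which is both the ligase of p53 and a direct p53 target, had 147 CPM in ARPC4 ko, 123 CPM in Nrf2-EGFP and 116 CPM in wt. It was highest in the knockout, 1.27-fold above wt (1.21 to 1.34). Mdm4, which covers the activation domain of p53, had 111 CPM in ARPC4 ko, 104 CPM in Nrf2-EGFP and 126 CPM in wt. Here wt was the highest library and Nrf2-EGFP the lowest, and the ratios of Mdm2 and Mdm4 are not called either.

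The CDK inhibitors and Rb1 differed by less than 1.4-fold between any 2 libraries, and none of these 5 genes is called in any comparison. The upstream promoter of Cdkn1a carries the pair of exactly matched p53 units shown above, and near matches beside them are not marked. Cdkn1a encodes p21, the CDK inhibitor through which p53 halts the cell cycle. Its counts were 1772 in ARPC4 ko, 1376 in Nrf2-EGFP and 1725 in wt, or 72.9, 55.4 and 76.7 CPM in that order of libraries. Nrf2-EGFP was the low library, 1.39-fold below wt (1.29 to 1.49), whereas ARPC4 ko and wt did not differ beyond counting error (ratio 0.95, 0.889 to 1.02). Cdkn2a had 211 CPM in ARPC4 ko, 164 CPM in Nrf2-EGFP and 181 CPM in wt. The gene gives p16, an inhibitor of CDK4 and CDK6, and p19Arf, an inhibitor of Mdm2, from separate promoters, and counts per gene do not tell them apart. Its level per kilobase was the second highest of the 32 genes in each library, at 180 CPM per kilobase in ARPC4 ko, 140 in Nrf2-EGFP and 154 in wt.

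The neighbouring gene Cdkn2b, which encodes the CDK4 and CDK6 inhibitor p15, had 37.1 CPM in ARPC4 ko, 38.5 CPM in Nrf2-EGFP and 39.1 CPM in wt. Rb1, the brake on E2F factors, had 22.7 CPM in ARPC4 ko, 22.6 CPM in Nrf2-EGFP and 23.8 CPM in wt. For both genes the intervals of the 3 libraries overlapped. Cdkn1b, which encodes p27, had 61.4 CPM in ARPC4 ko, 52.3 CPM in Nrf2-EGFP and 55.0 CPM in wt, and was highest in the knockout by 1.12-fold over wt (1.03 to 1.20). In Nrf2-EGFP against wt all 5 log2 folds were below 0, between -0.47 for Cdkn1a and -0.02 for Cdkn2b, and the intervals of Cdkn1b, Cdkn2b and Rb1 included a ratio of 1. In ARPC4 ko against wt 2 of 5 were above 0, and with scaling by total counts all 5 were.

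Fas and Trp53inp1 were the apoptosis genes that passed the rule, and both were among the 5 lowest of the 32 genes per kilobase. That rank depends on the annotated exonic length, which was 2.06 kilobases for Fas and 6.47 for Trp53inp1. Fas (chr19:34290666-34327772 on GRCm38), the death receptor for Fas ligand, had 90 counts in ARPC4 ko, 53 in Nrf2-EGFP and 23 in wt, or 3.70, 2.13 and 1.02 CPM in that order of libraries. It was highest in ARPC4 ko and lowest in wt, and the counting intervals of these libraries were 2.98 to 4.55 CPM and 0.648 to 1.53 CPM. Fas was 3.62-fold higher in ARPC4 ko than in wt (2.27 to 6.00), with a log2 fold of 1.46. In Nrf2-EGFP it was 2.09-fold above wt (1.26 to 3.56), with a log2 fold of 0.79 that is under the limit. Trp53inp1 (chr4:11156431-11174379) encodes a stress-induced protein that aids p53 activation and autophagy, and it had 742 counts in ARPC4 ko, 233 in Nrf2-EGFP and 433 in wt, or 30.5, 9.38 and 19.3 CPM. The altered cultures lay on opposite sides of wt. Trp53inp1 was 1.58-fold above wt in ARPC4 ko (1.41 to 1.79), which is not called, and 2.05-fold lower in Nrf2-EGFP than in wt (1.75 to 2.42), with a log2 fold that just reaches the limit of -1. Between the altered cultures it was 3.26-fold higher in ARPC4 ko than in Nrf2-EGFP (2.81 to 3.79).

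A second death receptor, Tnfrsf10b, which binds TRAIL, had 32.3 CPM in ARPC4 ko, 29.1 CPM in Nrf2-EGFP and 20.1 CPM in wt. As for Fas, wt was the lowest library, and the ratios to wt were 1.61 in ARPC4 ko (1.43 to 1.81) and 1.45 in Nrf2-EGFP (1.29 to 1.64), neither called. Eda2r, a receptor for ectodysplasin A2, had 56 counts in ARPC4 ko, 38 in Nrf2-EGFP and 35 in wt, and its ratios did not exclude 1 in any comparison.

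Among the genes that act at mitochondria, Pmaip1 stood apart. It encodes the BH3-only protein Noxa and had 1607 counts in ARPC4 ko, 2013 in Nrf2-EGFP and 2814 in wt, or 66.1, 81.0 and 125 CPM. Both altered cultures were below wt, by 1.89-fold in ARPC4 ko (1.78 to 2.01) and by 1.55-fold in Nrf2-EGFP (1.46 to 1.64). The log2 folds were -0.92 in ARPC4 ko and -0.62 in Nrf2-EGFP, short of the limit, so Pmaip1 is not called. Bbc3, which encodes the BH3-only protein Puma, had 44 counts in ARPC4 ko, 48 in Nrf2-EGFP and 46 in wt, and none of its ratios excluded 1. Bax, the pore-forming member of the BCL2 family, had 44.5 CPM in ARPC4 ko, 46.4 CPM in Nrf2-EGFP and 52.96 CPM in wt. Apaf1, the scaffold of the apoptosome, had 62.0 CPM in ARPC4 ko, 59.2 CPM in Nrf2-EGFP and 53.4 CPM in wt. Bax was highest in wt and Apaf1 in ARPC4 ko, both within 1.2-fold.

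Perp, the first of the 32 genes by level per kilobase, had 736 CPM in ARPC4 ko, 860 CPM in Nrf2-EGFP and 1234 CPM in wt. It was highest in wt, with ARPC4 ko 1.68-fold lower (1.65 to 1.71) and Nrf2-EGFP 1.44-fold lower than wt (1.41 to 1.46), and is not called. Perp is also 1 of the 11 keratinocyte markers, of which 9 had log2 folds below 0 in ARPC4 ko against wt and 7 in Nrf2-EGFP against wt. Of all 11865 genes, 6112 were below 0 in ARPC4 ko against wt and 5870 in Nrf2-EGFP against wt. Krt5 and Krt14, the keratins of basal keratinocytes, were called lower in ARPC4 ko than in wt, with log2 folds of -1.08 and -1.18. Krt5 is close to the limit, and these calls were not followed under other scalings. Trp63, by contrast, had 353 CPM in ARPC4 ko, 366 CPM in Nrf2-EGFP and 299 CPM in wt. The part of the marker levels in the difference of Perp was not tested.

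The other apoptosis genes stayed within 1.4-fold. Aen, a nuclease of apoptotic cells, had 79.1 CPM in ARPC4 ko, 86.4 CPM in Nrf2-EGFP and 84.1 CPM in wt. Phlda3, which keeps the kinase Akt from the membrane, had 80.0 CPM in ARPC4 ko, 73.0 CPM in Nrf2-EGFP and 77.8 CPM in wt. In Aen and Phlda3 the ratio of each altered culture to wt included 1. Ei24, a membrane protein of the endoplasmic reticulum, had 108 CPM in ARPC4 ko, 106 CPM in Nrf2-EGFP and 95.3 CPM in wt. Zmat3, a zinc finger protein that binds RNA, had 66.8 CPM in ARPC4 ko, 59.0 CPM in Nrf2-EGFP and 77.9 CPM in wt. Ei24 was lowest and Zmat3 highest in wt.

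**Figure D2:**
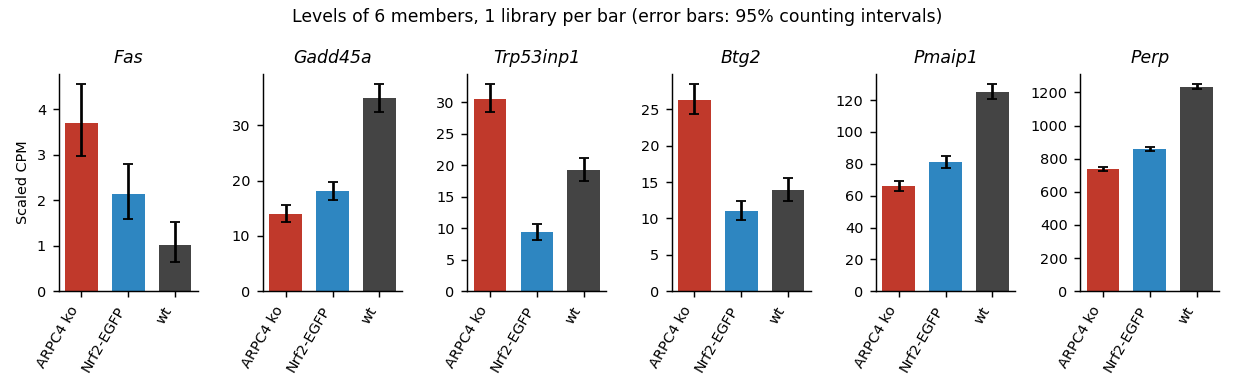
Scaled CPM of Fas, Gadd45a, Trp53inp1, Btg2, Pmaip1 and Perp in ARPC4 ko, Nrf2-EGFP and wt, with 1 library per bar, error bars for the 95% counting interval and a separate linear axis from 0 for each gene. Fas is highest in ARPC4 ko, Gadd45a, Pmaip1 and Perp are highest in wt, and Trp53inp1 and Btg2 are highest in ARPC4 ko and lowest in Nrf2-EGFP.

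The largest fall of the 32 genes against wt was that of Gadd45a (chr6:67035096-67037457), a growth arrest gene. Its product binds PCNA and stress kinases and acts in arrest and repair. It had 340 counts in ARPC4 ko, 449 in Nrf2-EGFP and 783 in wt, or 14.0, 18.1 and 34.8 CPM. Both altered cultures lay below wt without overlap of their counting intervals. Gadd45a fell 2.49-fold in ARPC4 ko against wt (2.19 to 2.84), with a log2 fold of -1.29, and was 1.93-fold below wt in Nrf2-EGFP (1.71 to 2.17), with a log2 fold of -0.93 that is under the limit. The gene shares 337 exonic bases with E230016M11Rik on the opposite strand, whose reads cannot be told apart if strand was not used in the counting. Its promoter, printed above, holds 1 p53 unit.

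Btg2 (chr1:134075170-134079120), an antiproliferative cofactor of the mRNA deadenylation machinery, was high in ARPC4 ko. Its counts were 639 in ARPC4 ko, 274 in Nrf2-EGFP and 312 in wt, or 26.3, 11.03 and 13.9 CPM. The knockout stood above both other libraries, by 2.38-fold against Nrf2-EGFP (2.07 to 2.76), which is called, and by 1.90-fold against wt (1.65 to 2.18), which is not, with a log2 fold of 0.90. With scaling by total counts the log2 fold of Btg2 against wt was 1.001, and it was called. Ccng1, a cyclin that recruits a phosphatase to Mdm2, had 143 CPM in ARPC4 ko, 109 CPM in Nrf2-EGFP and 102 CPM in wt. It was 1.395-fold above wt in ARPC4 ko (1.32 to 1.47). Gtse1, a microtubule-associated protein that holds down p53 in G2 phase, had 59.8 CPM in ARPC4 ko, 53.2 CPM in Nrf2-EGFP and 43.9 CPM in wt, and was 1.36-fold above wt in ARPC4 ko (1.26 to 1.48).

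The polo-like kinases Plk2 and Plk3 act in stress responses. Plk2 had 265 CPM in ARPC4 ko, 348 CPM in Nrf2-EGFP and 345 CPM in wt. Plk3 had 63.6 CPM in ARPC4 ko, 65.2 CPM in Nrf2-EGFP and 89.7 CPM in wt. For Plk2 ARPC4 ko was the low library, 1.31-fold below wt (1.26 to 1.35), and for Plk3 both altered cultures were below wt, by 1.41-fold in ARPC4 ko (1.32 to 1.51) and 1.38-fold in Nrf2-EGFP (1.29 to 1.47). Sesn1, a sestrin that restrains mTORC1, had 14.1 CPM in ARPC4 ko, 14.2 CPM in Nrf2-EGFP and 16.2 CPM in wt, and its ratios did not exclude 1.

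No gene of DNA repair and nucleotide supply is called in any comparison. Polk, a polymerase that copies across damaged bases, had 33.5 CPM in ARPC4 ko, 21.4 CPM in Nrf2-EGFP and 24.1 CPM in wt. It was 1.57-fold above Nrf2-EGFP (1.403 to 1.75) and 1.39-fold above wt (1.24 to 1.55) in ARPC4 ko. Ddb2 and Xpc recognise ultraviolet damage for nucleotide excision repair. Ddb2 had 23.4 CPM in ARPC4 ko, 19.3 CPM in Nrf2-EGFP and 18.8 CPM in wt, and it shares 652 exonic bases with Acp2 on the opposite strand. Xpc, with 30.9 CPM in ARPC4 ko, 31.2 CPM in Nrf2-EGFP and 30.9 CPM in wt, had the narrowest range of the 32 genes. Rrm2b, the p53-induced subunit of ribonucleotide reductase, had 24.1 CPM in ARPC4 ko, 24.6 CPM in Nrf2-EGFP and 30.6 CPM in wt, and wt was the highest library.

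In ARPC4 ko against wt, 1 of the 32 genes was called higher (Fas) and 1 lower (Gadd45a). Of all 11865 genes, 6.76% were called in this comparison, 4.7% higher and 2.06% lower, so the share among the 32 genes is near the background. Of the 32 genes 29 reached 10 CPM, and among all 9318 genes at that level 4.01% were called, 2.72% higher and 1.3% lower. The median log2 fold was 0.02 over the 32 genes and -0.01 over all genes. Above 0 were 17 of the 32 (53.1%), against 48.5% of all genes. Within 0.5 of 0 lay 25 (78.1%), against 78.2% of all genes. The log2 folds ran from -1.29 for Gadd45a to 1.46 for Fas. By role, the median was 0.27 for p53 and its regulators, -0.07 for the CDK inhibitors with Rb1, 0.04 for the apoptosis genes, -0.20 for growth arrest and stress signalling and 0.16 for repair. With scaling by total counts, which raised the median of all genes to 0.09, the median of the 32 genes was 0.13, and by role in the same order the medians were 0.38, 0.04, 0.14, -0.10 and 0.26. The call of Fas was lost with a pseudocount of 2 CPM, at a log2 fold of 0.92.

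In Nrf2-EGFP against wt, 0 were called higher and 1 lower (Trp53inp1), against 5.61% of all genes called, 3.57% higher and 2.05% lower, and 3.58% of those with at least 10 CPM, 2.6% higher and 0.987% lower. Here the median was -0.07 over the 32 genes and 0.01 over all genes. Above 0 were 12 of the 32 (37.5%), against 50.5% of all genes, and 26 (81.2%) lay within 0.5 of 0, against 81%. By role, the median was 0.08 for p53 and its regulators, -0.07 for the CDK inhibitors with Rb1, -0.07 for the apoptosis genes, -0.18 for growth arrest and stress signalling and -0.08 for repair. The call of Trp53inp1 was lost with DESeq2 size factors, at a log2 fold of -0.99, and with a pseudocount of 2 CPM, at -0.90. Both comparisons use the same wt library, so a level peculiar to it enters both. In ARPC4 ko against Nrf2-EGFP, 2 were called higher (Trp53inp1 and Btg2) and 0 lower, against 2.98% of all genes called, 2.01% higher and 0.961% lower, and 1.22% of those with at least 10 CPM, 0.558% higher and 0.665% lower. The median was 0.12 over the 32 genes and -0.02 over all genes, and 20 of 32 (62.5%) were above 0, against 47.1% of all genes.

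**Figure D3:**
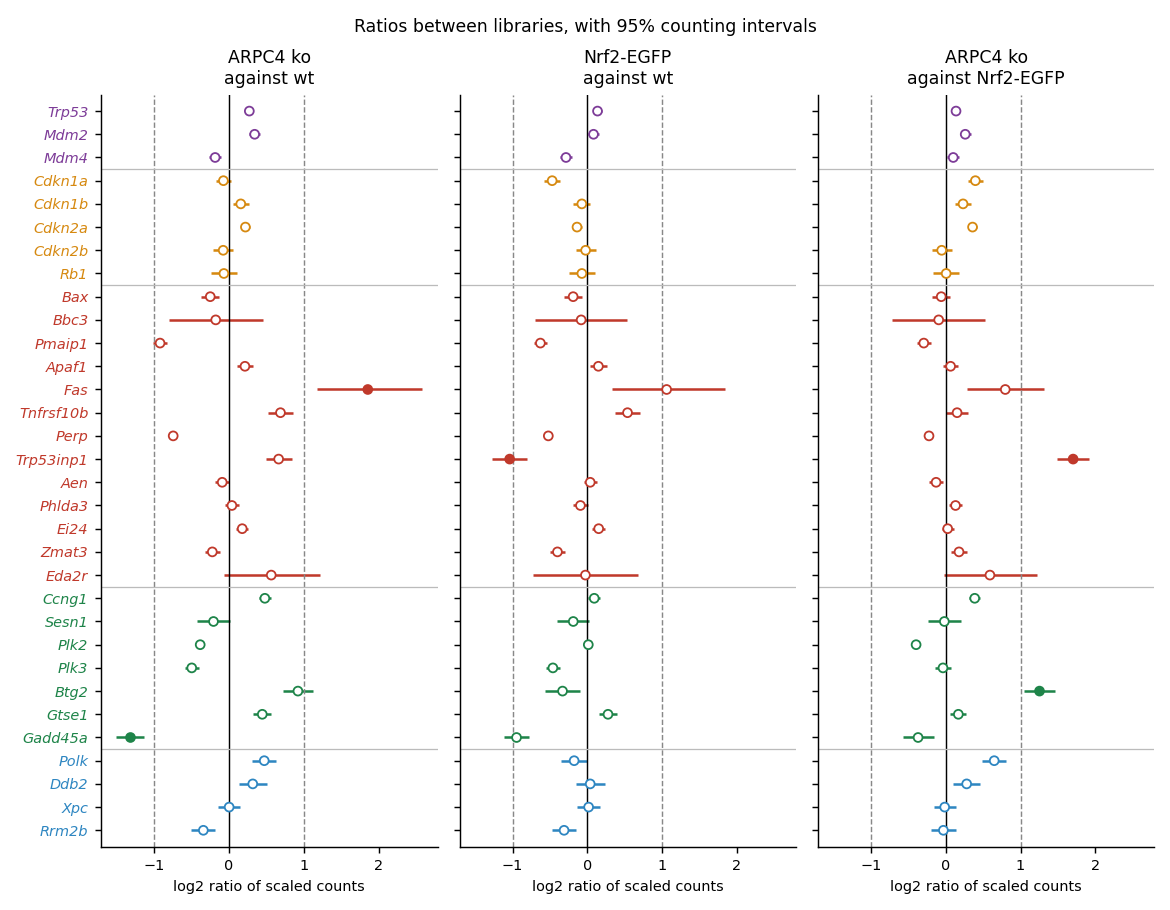
Log2 ratio of scaled counts for each of the 32 genes, with lines for 95% counting intervals, in ARPC4 ko against wt, Nrf2-EGFP against wt and ARPC4 ko against Nrf2-EGFP. Filled points are called and dashed lines mark a 2-fold difference. Fas and Gadd45a are filled in the first panel, Trp53inp1 in the second, and Trp53inp1 and Btg2 in the third, whereas Fas in the second panel lies past the dashed line without a call because the call adds 0.5 CPM to both levels.

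The plot of log2 fold against level places the 32 genes within the cloud of all genes. A lower limit of 1.5-fold called 4 genes higher (Btg2, Fas, Tnfrsf10b and Trp53inp1) and 3 lower (Gadd45a, Perp and Pmaip1) in ARPC4 ko against wt, where it called 10.8% of all genes higher and 6.24% lower. In Nrf2-EGFP against wt it called Fas higher and Gadd45a, Pmaip1 and Trp53inp1 lower, against 8.61% and 5.72% of all genes. Between the altered cultures it called Btg2, Fas, Polk and Trp53inp1 higher in ARPC4 ko and none lower, against 5.85% and 3.38%.

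**Figure D4:**
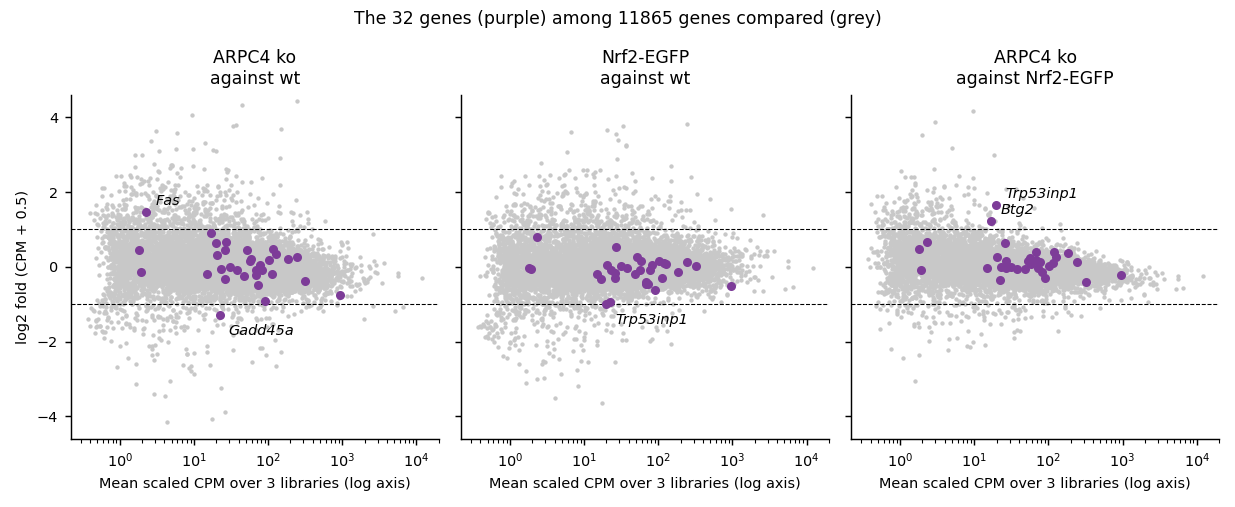
Log2 fold of CPM + 0.5 against mean scaled CPM over the 3 libraries (log axis) for 11865 genes (grey) and the 32 genes (purple), with the called ones named and dashed lines at log2 folds of -1 and 1. The purple points lie within the spread of the grey ones in the 3 panels.

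Other targets of p53, 35 of 38 listed genes measured, included larger differences than the 32 genes did. Of these, 4 were called higher and 1 lower in ARPC4 ko against wt, with a median log2 fold of 0.26, where 4.7% of all genes were called higher and 2.06% lower. This list and those below were chosen with earlier results of these data known, so their shares describe the lists and test nothing. Sulf2, a sulfatase of heparan sulfate, had 54.8 CPM in ARPC4 ko, 28.1 CPM in Nrf2-EGFP and 11.7 CPM in wt, with log2 folds against wt of 2.18 in ARPC4 ko and 1.23 in Nrf2-EGFP, both called. Igfbp3, a secreted binding protein of insulin-like growth factors, had 365 CPM in ARPC4 ko, 505 CPM in Nrf2-EGFP and 131 CPM in wt, and its log2 folds of 1.48 in ARPC4 ko and 1.95 in Nrf2-EGFP are called too. The cytokine gene Lif was called in both as well, with 118 CPM in ARPC4 ko, 95.1 CPM in Nrf2-EGFP and 44.2 CPM in wt and log2 folds of 1.41 in ARPC4 ko and 1.097 in Nrf2-EGFP.

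Dcxr, a carbonyl reductase, was called higher in ARPC4 ko at a log2 fold of 1.77, with 10.04 CPM in ARPC4 ko, 5.47 CPM in Nrf2-EGFP and 2.58 CPM in wt. Sesn2, the stress-induced relative of Sesn1, was called lower in ARPC4 ko, with 37.1 CPM in ARPC4 ko, 44.9 CPM in Nrf2-EGFP and 78.1 CPM in wt. In Nrf2-EGFP against wt 5 of these targets were called higher and 1 lower, with a median of 0.06 (0.04 with scaling by total counts), where 3.57% of all genes were called higher and 2.05% lower. Thbs1, which encodes an extracellular matrix protein, was called there with a log2 fold of 1.38, and its log2 fold was 0.88 in ARPC4 ko against wt. Gdf15, a stress cytokine, had 27 counts in ARPC4 ko, 6 in Nrf2-EGFP and 31 in wt, and was called lower in Nrf2-EGFP. Gdf15 and Psrc1 were called higher in ARPC4 ko than in Nrf2-EGFP, and Psrc1, a spindle protein, had 174 counts in ARPC4 ko, 60 in Nrf2-EGFP and 112 in wt.

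All 22 regulators and cofactors of p53 were measured, and 21 of them (95.5%) lay within 0.5 of a log2 fold of 0 in each comparison with wt. Of all genes, 78.2% lay there in ARPC4 ko against wt and 81% in Nrf2-EGFP against wt. Among genes with at least 10 CPM these shares were 83.4% and 85.8%. None was called in ARPC4 ko against wt, where the median log2 fold was 0.08 (0.19 with scaling by total counts) and the deacetylase gene Sirt1 lay outside, at -0.63. In Nrf2-EGFP against wt the median was 0.11 and Twist1 was called higher, on 47 counts in Nrf2-EGFP against 6 in wt. No gene of the remaining cell cycle and apoptosis lists was called in either comparison with wt. Of all genes, 6.76% were called in ARPC4 ko against wt and 5.61% in Nrf2-EGFP against wt. Among genes with at least 10 CPM these shares were 4.01% and 3.58%. The other CDK inhibitors and pocket proteins (6 genes) had medians of -0.01 in ARPC4 ko and -0.05 in Nrf2-EGFP, and cyclins, CDKs and E2F factors (18 genes) had medians of -0.09 and 0.02. With scaling by total counts the medians in ARPC4 ko were 0.09 for the other CDK inhibitors and 0.02 for the cyclins, CDKs and E2F factors, which had -0.006 in Nrf2-EGFP. Among these lists Cdkn2d had a log2 fold of 0.50 in ARPC4 ko, Cdkn3 one of -0.55 in Nrf2-EGFP, Tfdp2 one of 0.70 in ARPC4 ko and Ccne2 one of -0.74 in Nrf2-EGFP.

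The G2/M genes that p53 and p21 repress through the DREAM complex (20 genes) had log2 folds below 0 for 18 genes in ARPC4 ko against wt, with a median of -0.19, and for 16 genes in Nrf2-EGFP against wt, with a median of -0.15. Of all 11865 genes, 6112 were below 0 in ARPC4 ko against wt and 5870 in Nrf2-EGFP against wt. With scaling by total counts 14 were below 0 in ARPC4 ko and the median was -0.08. Cdc25c and Plk1, which drive entry into mitosis, had the lowest values in ARPC4 ko, at -0.57 and -0.55, and Foxm1, their transcription factor, lay above wt in both, at 0.42 in ARPC4 ko and 0.39 in Nrf2-EGFP. The BCL2 family and caspases (18 of 21 measured) had medians of 0.07 in ARPC4 ko (0.18 with scaling by total counts) and -0.03 in Nrf2-EGFP (-0.05 with that scaling). Bok, a relative of Bax, had log2 folds of -0.46 in ARPC4 ko and -0.68 in Nrf2-EGFP. Immediate early genes (15 of 17 measured), a class of rapidly induced genes to which Btg2 also belongs, had medians of 0.18 in ARPC4 ko (0.28 with scaling by total counts) and 0.06 in Nrf2-EGFP (0.04 with that scaling). Ier3 had log2 folds of 0.71 in ARPC4 ko and 0.58 in Nrf2-EGFP, and Zfp36, which speeds the decay of cytokine mRNAs, had -0.77 in ARPC4 ko and -0.71 in Nrf2-EGFP.

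**Figure D5:**
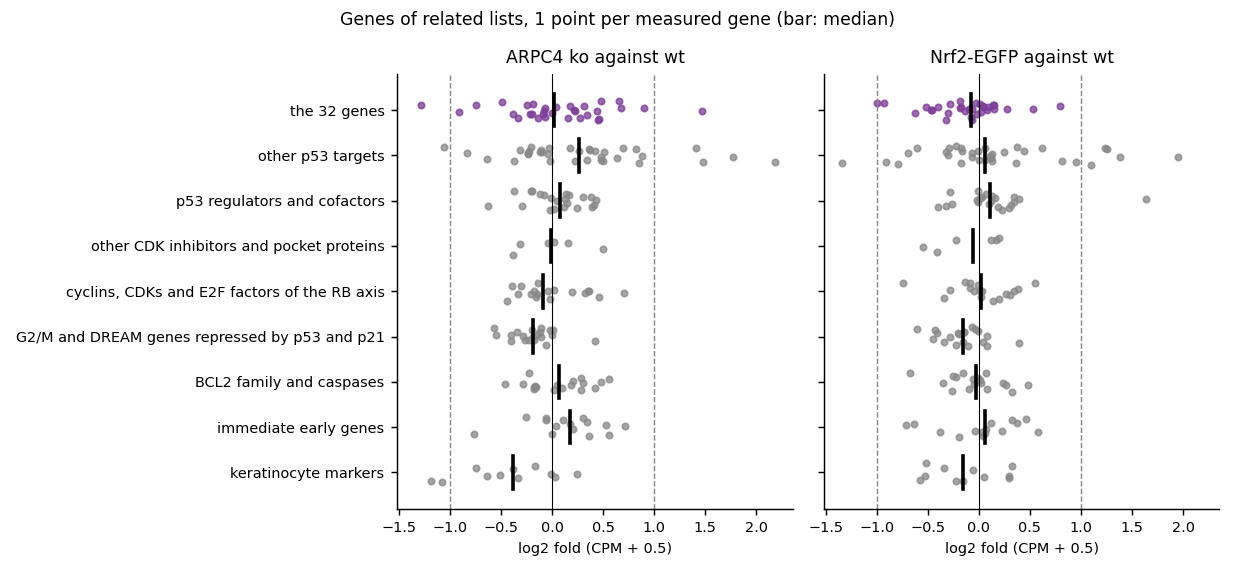
Log2 fold of CPM + 0.5 in ARPC4 ko against wt and in Nrf2-EGFP against wt for the 32 genes (purple) and the genes of 8 related lists (grey), with 1 point per measured gene, a black bar for the median of each list and dashed lines at -1 and 1. The other p53 targets extend to 2.18 in ARPC4 ko and to 1.95 in Nrf2-EGFP, and the G2/M genes lie mostly just below 0.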

How the data were processed

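RNA from 3 cultures of immortalised mouse keratinocytes, 1 library per genotype, was analysed. Per the labels' protocols, RNA was extracted with TRIzol and strand-specific libraries were made with a TruSeq mRNA kit and read as 65 bp single ends. The submitters' processing notes name the mm10 build and the tools Bowtie 1.1, HTSeq and TopHat2 2.1.0, without settings. Not given in the sources used here were the strand setting and annotation of the counting. The authors deposited raw counts per gene, 1 file per library. Non-gene entries (8.22% in ARPC4 ko, 8.48% in Nrf2-EGFP and 9.08% in wt) were left out of library sizes, which were 23033863, 25723959 and 22924294 counts in that order. A count of 0 allows 3 counts, or 0.123, 0.121 and 0.133 CPM.

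Symbols, exonic lengths and coordinates came from GENCODE M21 (GRCm38) and promoters from RefSeq (GRCm38.p6). The exonic length is the merged length of all annotated exons of a gene, so levels per kilobase depend on the annotated transcripts. CPM used TMM scaling (edgeR 4.0.16, R 4.3.3), with factors of 1.055 in ARPC4 ko, 0.966 in Nrf2-EGFP and 0.981 in wt. A gene had to reach 1 CPM in 1 library or more. A gene was called where the log2 ratio of CPM + 0.5 had a size of at least 1 and the exact 95% Clopper-Pearson interval of the ratio of counts excluded 1. Poisson intervals were used for single levels. These intervals come from the counts of single libraries, so they cover counting error only. The reads carry no molecular identifiers, so copies of 1 molecule are counted as separate reads and the intervals can be too narrow. The design planned no test, since each group has 1 library. The steps were tested before use on simulated data with counting error only. The planted changes were larger than the limit and in genes of at least 10 CPM. That test therefore does not cover a spread between cultures, changes near the limit or changes in genes of lower level.

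The members and gene lists were chosen with earlier results of these data known. All 32 genes are described. Of every other list, genes called in a comparison with wt were named or, where fewer than 2 were, those with the largest log2 folds in size. A few genes that meet this rule are left out here. Foxm1, Mitf, Trp63 and Psrc1 were named after their values were seen. Bax, Cdkn1a, Ddb2, Ei24, Gadd45a, Plk3, Rb1 and Rrm2b share exonic bases with another annotated gene, so their counts are less certain. Alternatives were scaling by total counts or DESeq2 1.42.0 size factors, no filter or one at 10 CPM, a pseudocount of 2 CPM and a 1.5-fold limit.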

Additional observations from a re-analysis of the deposited data

How the results depend on the processing

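No paired analysis was possible because each genotype has 1 library, and for the same reason no replicate could be left out. Values per gene (471 under the alternatives) kept the sign of every called difference, 32 of them moved by more than their counting error, all with scaling by total counts, and 4 calls changed. In ARPC4 ko against wt the number of the 32 genes called higher, 1 with the settings used above, was 2 with scaling by total counts (Btg2 added), 0 with a filter at 10 CPM (Fas, Bbc3 and Eda2r removed, 29 genes kept), 0 with a pseudocount of 2 CPM (Fas at 0.92) and 4 at 1.5-fold. The number called lower, 1, was 3 at 1.5-fold. In Nrf2-EGFP against wt the number higher, 0, was 1 at 1.5-fold, and the number lower, 1, was 0 with DESeq2 size factors (Trp53inp1 at -0.99), 0 with a pseudocount of 2 CPM (-0.90) and 3 at 1.5-fold. In ARPC4 ko against Nrf2-EGFP the number higher, 2, was 4 at 1.5-fold, and the median, 0.12, was 0.24 with scaling by total counts, which also moved the median of all genes to 0.11 there and to 0.09 in ARPC4 ko against wt. Over all genes, ARPC4 ko against wt had 558 higher and 244 lower, 683 and 198 by total counts, 253 and 121 with a filter at 10 CPM, 311 and 143 with a pseudocount of 2 CPM, and 1285 and 740 at 1.5-fold. Nrf2-EGFP against wt had 423 and 243, against 242 and 92 at 10 CPM, 258 and 104 with the larger pseudocount and 1021 and 679 at 1.5-fold. ARPC4 ko against Nrf2-EGFP had 239 and 114, against 301 and 88 by total counts, 52 and 62 at 10 CPM, 80 and 67 with the larger pseudocount and 694 and 401 at 1.5-fold. Fas rests on 23 counts in wt, so the size of its difference is limited by depth, and without further cultures no difference can be set against the spread between them.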

Other observations

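Of the 10 genes with a matched p53 unit, Trp53, Mdm2, Ei24, Ccng1 and Polk had log2 folds of 0.27, 0.34, 0.18, 0.48 and 0.46 in ARPC4 ko against wt. Cdkn1a, Bax, Aen, Sesn1 and Gadd45a had -0.07, -0.25, -0.09, -0.20 and -1.29, and with scaling by total counts Cdkn1a and Aen had 0.03 and 0.02. These genes were set side by side after their values were seen, and each rests on 1 library per genotype.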
